A study of Homo sapiens with 12 samples.

Results

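Very long protected sites are stretches of 150 nucleotides (nt) or more that were called as a single protein-protected site in at least 1 of 6 site lists from HEK293T cells, a line derived from human embryonic kidney. They were chosen by length alone, taken list by list, and long sites that overlapped on the same strand were joined across lists into loci. Of 511670 sites, 2257 were this long and 509413 were shorter, and the long ones formed 1660 joined loci. The mitochondrial chromosome and the unplaced contig that the rule names were left out, with 1711 sites of which 114 were long.

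The lists came from protein interaction profile sequencing (PIP-seq), in 12 libraries. Cells were cross-linked with formaldehyde. RNA was digested either with an ssRNase (RNase ONE), which cuts unpaired RNA, or with a dsRNase (RNase V1), which cuts paired RNA, and digestion took place with proteins in place (footprint) or after proteins had been removed (digestion control). The 4 groups are thus ssRNase footprint, dsRNase footprint, ssRNase digestion control and dsRNase digestion control, with 3 replicates each. Each list sets 1 footprint library against a digestion control, so there were 3 ssRNase lists and 3 dsRNase lists. All groups share the cell line and the cross-link, so nothing here measures protection without cross-linking or in other cells. Nothing in the labels says whether replicates were separate cultures, so the p-values measure only the spread between these lists, which may be technical. No read counts are in the lists, so the depth behind a site is unknown.

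In PIP-seq, RNA that is bound by protein survives a nuclease that would otherwise cut it, and the surviving stretch is read as a footprint. A single RNA-binding domain usually contacts a short stretch of RNA. Long protected stretches can arise where proteins pack next to each other on RNA, as in the ribonucleoproteins RNase P and RNase MRP, or on architectural noncoding RNAs such as NEAT1, which builds nuclear paraspeckles. Sites are called from the enrichment of a footprint over its control, so the length of a site is that of a region above a threshold and need not be the length of 1 bound protein.

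The long sites were mostly an ssRNase class. They numbered 1166, 272 and 765 in ssRNase lists 1, 2 and 3, against 17, 14 and 23 in dsRNase lists 1, 2 and 3. As a share of each list this was 0.556%, 0.475% and 0.445% in the ssRNase lists, and 0.0718%, 0.0498% and 0.108% in the dsRNase lists. Every ssRNase list was above every dsRNase list, and the mean share was 0.492% ± 0.0574 against 0.0766% ± 0.0295 (SD, n = 3 each). The difference of 0.416 percentage points is given as a description, since length chose the members. Long sites held 2.23%, 1.66% and 1.75% of all site bases in the ssRNase lists, against 0.431%, 0.271% and 0.546% in the dsRNase lists.

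**Figure D1:**
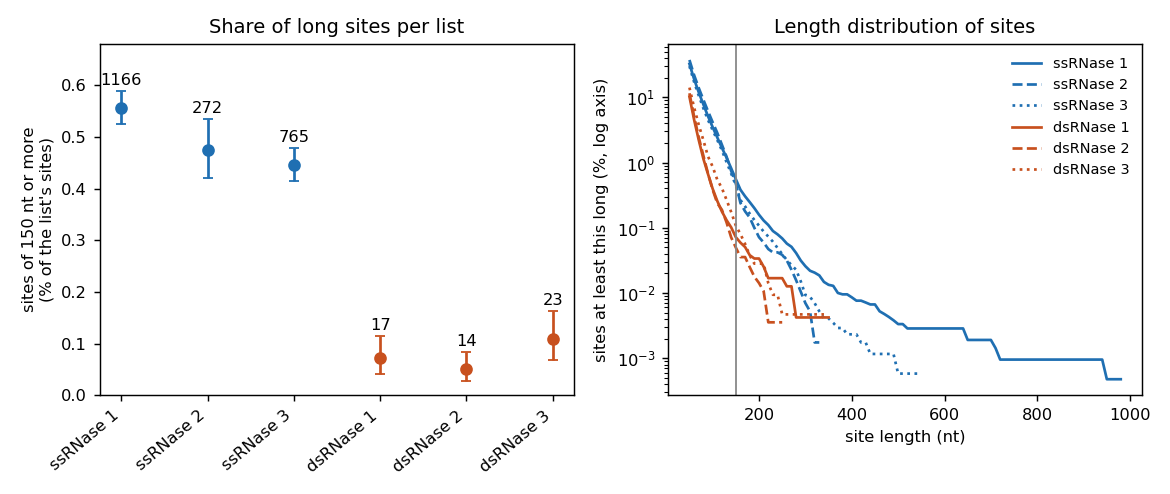
Left, percent of each list's sites that were 150 nt or longer, with exact (Clopper-Pearson) 95% binomial intervals that cover counting error only, and the number of long sites above each point. Right, percent of a list's sites at least as long as the length on the x axis (log y axis). The ssRNase lists lie between 0.445% and 0.556%, above the dsRNase lists at 0.0498% to 0.108%.

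Length ran on without a step at the threshold. In the ssRNase lists 138, 53 and 102 sites were 150 to 152 nt long, just inside the limit, and 142, 37 and 124 were 147 to 149 nt long, just outside it. The dsRNase lists had 2, 1 and 3 just inside and 2, 2 and 2 just outside. The median long site was 174, 160 and 166 nt in the ssRNase lists, and 182, 180 and 171 nt in the dsRNase lists. The median of all sites was 43, 44 and 42 nt with ssRNase and 33, 33 and 34 nt with dsRNase, so the same limit lay further out in the dsRNase distribution. Sites of 300 nt or more numbered 54, 4 and 16 in the ssRNase lists, against 1, 0 and 1 in the dsRNase lists. Sites of 500 nt or more were present in ssRNase list 1 (7 sites) and ssRNase list 3 (1 site), and in no other list.

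The authors' score, of no stated scale, comes from the same contrast as length and is a description only. The median long site stood at percentile 95.5, 92.8 and 94.4 of its list's scores with ssRNase, and at percentile 99.9, 99.9 and 98.4 with dsRNase.

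The name "single-replicate" describes most loci by length, but not all, and few by the presence of a site. Of the 1660 loci, 1214 (73.1%) had a long site in 1 list, 316 in 2 lists, 127 in 3, 2 in 4 and 1 in 5, and none in all 6. A long site was thus shared by 2 or more lists at 446 loci (26.9%). No site of any length was present in another list at 21 loci (1.27%). Counted by site, 1.11%, 0% and 1.05% of long ssRNase sites met no site in the other 5 lists, against 13.6%, 1.39% and 7.96% of ssRNase sites of 75 to 149 nt and 43.6%, 9.36% and 35.7% of all shorter ones. None of the long dsRNase sites was alone, against 0.826%, 1.06% and 0.345% of dsRNase sites of 75 to 149 nt and 15.9%, 14.8% and 12.8% of all shorter ones. A longer site has more room to meet another by a single base, so these shares move with length itself. Sites of any length were present in 2 lists at 105 loci, in 3 lists at 770, in 4 at 308, in 5 at 190 and in all 6 at 266. The loci that were long in a single list came mainly from the largest lists, with 759 from ssRNase list 1, 65 from ssRNase list 2 and 375 from ssRNase list 3, against 4, 1 and 10 from dsRNase lists 1, 2 and 3. A locus was long in all 3 ssRNase lists in 120 cases and in all 3 dsRNase lists in 10 cases, and 6 loci were long with both nucleases.

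**Figure D2:**
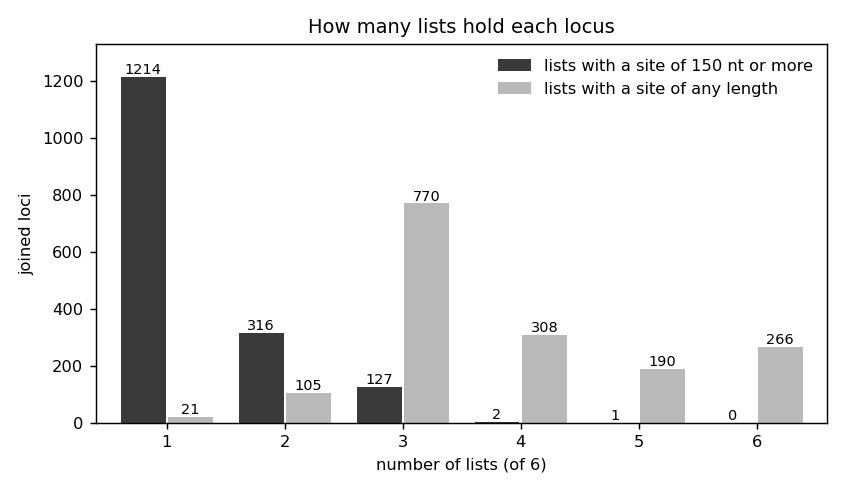
Number of joined loci (y axis) by the number of lists that held them (x axis), counting either lists with a site of 150 nt or more (dark) or lists with a site of any length (light). The dark bars peak at 1 list, with 1214 loci, and the light bars at 3 lists, with 770.

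Long sites were covered by other lists more than shorter sites were. For each site, the share of its bases inside same-strand sites of the other lists of the same nuclease was averaged over those lists. In the ssRNase lists the mean was 65.2%, 91.7% and 75.5% for long sites, against 29.2%, 70.9% and 36.2% for shorter sites. In the dsRNase lists it was 93.5%, 95.2% and 77.2% for long sites, against 30.2%, 26.9% and 31.1% for shorter sites. Long sites were higher in 6 of 6 lists, by 45.7 percentage points on average. A two-sided exact sign-flip permutation test over the lists gave p = 0.03125, the smallest that 6 lists allow. After Benjamini-Hochberg adjustment over the 5 main tests it was 0.156, and none of the 5 passed after adjustment. Lists of 1 nuclease cover each other, so the 6 values are not independent.

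The excess was smaller against nearer comparators. Against sites under 150 nt in the same strand's 10000-bp windows that held a long site of that list, the mean difference was 21.5 percentage points (exact sign-flip p = 0.03125). Within those windows the cover was 65.2%, 91.7% and 75.5% for long sites in the ssRNase lists, against 38.7%, 84.4% and 52.2% for their shorter neighbours. With dsRNase it was 93.5%, 95.2% and 77.2% for long sites, against 71.4%, 70.0% and 52.4% for their neighbours. Against sites of 75 to 149 nt anywhere in the list, the difference was 20.9 percentage points (exact sign-flip p = 0.03125). Both of these p-values lie outside the adjusted tests and are unadjusted.

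**Figure D3:**
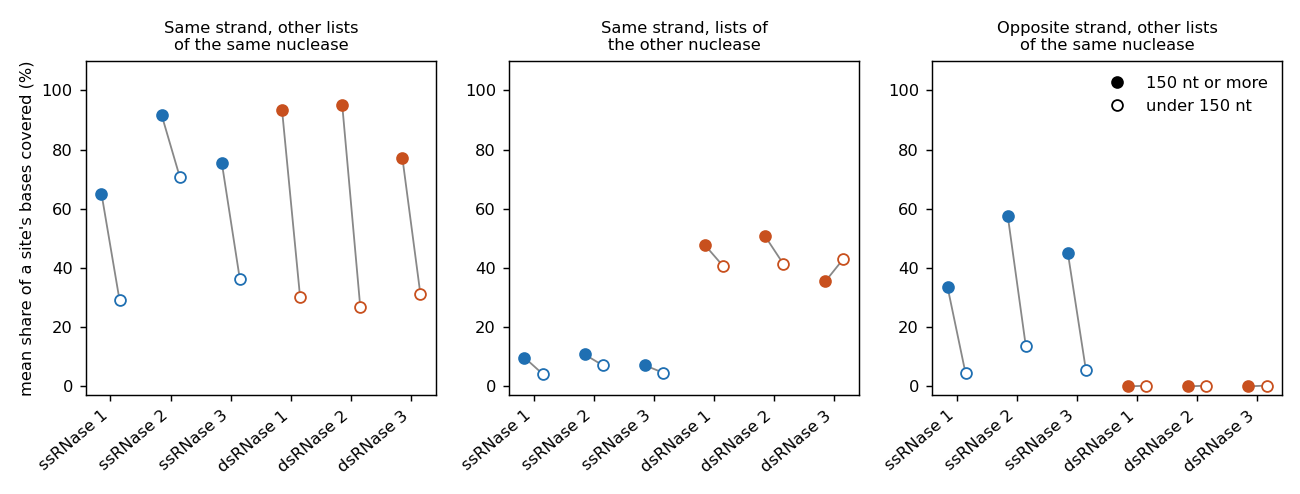
Mean percent of a site's bases (y axis) covered by same-strand sites in the other lists of the same nuclease (left), by same-strand sites in lists of the other nuclease (middle), and by opposite-strand sites in the other lists of the same nuclease (right), for each list on the x axis. Filled points are sites of 150 nt or more and open points shorter sites; the filled point is higher in all 6 lists at left and in 5 of 6 in the middle, and at right in the 3 ssRNase lists only.

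Cover across nucleases did not pass its test. Sites of the dsRNase lists covered 9.71%, 10.8% and 7.12% of a long ssRNase site, against 4.22%, 7.11% and 4.61% of a shorter ssRNase site. Sites of the ssRNase lists covered 47.7%, 50.7% and 35.5% of a long dsRNase site, against 40.7%, 41.4% and 43.1% of a shorter dsRNase site. The mean difference of 3.39 percentage points gave an exact sign-flip p of 0.219 (adjusted 0.25), with 5 of 6 lists in its direction. Its direction did not hold throughout: it was -0.548 percentage points without the sites at the loci named further on, -1.56 when counted as sites with at least 50% covered, and -0.943 with both left-out contigs kept.

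A long site in 1 list was often in pieces in another. In the ssRNase lists 42.5%, 33.1% and 36.4% of pairs of a long site and another list of the same nuclease had 2 or more sites touching the long one, and in the dsRNase lists 32.1% (list 2) to 52.2% (list 3). A single site met the long one in 49.7%, 66.9% and 58.4% of ssRNase pairs, and in 47.8% (list 3) to 67.9% (list 2) of dsRNase pairs. No site met it in 7.80%, 0% and 5.16% of ssRNase pairs, and this happened in no dsRNase pair. Shorter sites met 2 or more sites in 0.861% to 1.92% of pairs, and a longer site has more room for pieces. A site with both ends within 5 nt of the long site's ends was found in 8.15%, 21.5% and 12.0% of ssRNase pairs, and in 29.4%, 42.9% and 13.0% of dsRNase pairs. For shorter sites this was 11.3%, 25.2% and 13.4% of ssRNase pairs, above the long sites in each list, and 11.2%, 9.87% and 11.7% of dsRNase pairs, below the long sites in each list.

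Neighbouring sites also lay close to long ones within the same list. Another site lay within 10 nt on the same strand beside 27.1%, 15.4% and 26.5% of long ssRNase sites, against 7.10%, 4.41% and 6.16% of shorter ssRNase sites. In the dsRNase lists this was 47.1%, 28.6% and 30.4% of long sites, against 4.31%, 4.84% and 5.15% of shorter sites. Joining sites up to 10 nt apart before applying the limit gave 2312, 490 and 1518 long sites in the ssRNase lists, and 26, 29 and 50 in the dsRNase lists. The number of very long sites thus depended on whether the caller left a gap of a few bases.

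The nucleases stood apart on the opposite strand. Opposite-strand sites of the other ssRNase lists covered 33.6%, 57.7% and 45.0% of a long ssRNase site, against 4.34%, 13.7% and 5.39% of a shorter one. In the dsRNase lists the cover of long sites was 0% in all 3 lists, against 0.185%, 0.206% and 0.236% for shorter sites. The difference between long and shorter sites averaged 37.6 ± 7.58 percentage points in ssRNase lists and -0.209 ± 0.0257 in dsRNase lists (SD, n = 3 each), and the groups did not overlap. Sites of 75 to 149 nt already had much of this cover, with 18.6%, 44.1% and 25.9% in the ssRNase lists and 0%, 0.427% and 0.302% in the dsRNase lists. Against them the difference of long sites was 15.9 ± 2.81 percentage points in ssRNase lists and -0.243 ± 0.220 in dsRNase lists (SD, n = 3 each). The comparison between nucleases against all shorter sites gave an exact permutation p of 0.1, the smallest 3 against 3 lists allow. Over all 6 lists the mean difference of 18.7 percentage points gave an exact sign-flip p of 0.25, with 3 of 6 lists in its direction. The 54 long dsRNase sites are few and lie at 31 loci. Shorter dsRNase sites were already near 0%, so the dsRNase difference had little room below 0. The ssRNase lists held on average 8.28 times the site bases of the dsRNase lists, which leaves more room for opposite-strand cover.

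The same pattern was present within single lists. Of the long ssRNase sites, 46.0%, 42.6% and 58.0% had at least 50% of their bases faced by a site on the other strand of their own list, against 5.95%, 9.63% and 7.37% of shorter ssRNase sites. No base was faced in 45.6%, 31.6% and 29.4% of the long ones, so most long ssRNase sites were either largely faced or not faced at all. Long sites faced over at least 50% had 5.21%, 6.26% and 4.74% of their bases covered by dsRNase sites, against 15.5%, 17.7% and 12.2% for long sites with no facing site. Faced and unfaced long ssRNase sites therefore separated in their dsRNase cover in all 3 lists, as a description. Shorter ssRNase sites differed in the same direction, so this was not particular to long sites. Their dsRNase cover was 2.63%, 3.25% and 2.55% where at least 50% was faced, against 4.33%, 7.58% and 4.79% with no facing site. Whether library strand assignment plays a part in the facing sites was not tested.

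At locus level, a facing pair of long sites stood on chromosome 4, chosen after its values were seen. The plus-strand locus at chr4:13335844-13336359 held 516, 382 and 445 site bases in ssRNase lists 1, 2 and 3, against 75, 83 and 176 in the dsRNase lists. The minus-strand locus at chr4:13336041-13336394 held 345, 223 and 338 bases with ssRNase, against 33, 23 and 79 with dsRNase. Both strands were long in all 3 ssRNase lists and in no dsRNase list. All coordinates are hg19 and counted from 1.

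Around the centre of long ssRNase sites, cover on the opposite strand was higher on the 5′ side at 100 nt, while the best-overlapping facing sites took no constant side. At the centre 45.7% ± 10.7 of long sites were covered on the opposite strand by other ssRNase lists, 34.1% ± 9.15 at 100 nt towards the 5′ end and 13.4% ± 2.26 at 100 nt towards the 3′ end (SD, n = 3 lists). Shorter ssRNase sites had 8.66% ± 5.58 at the centre, 4.28% ± 2.82 on the 5′ side and 2.81% ± 1.70 on the 3′ side. The facing site with the largest overlap in the other ssRNase lists had its centre at a median of -4, 3 and 0 nt from that of the long site (negative is towards the 5′ end), and lay towards the 5′ end in 52.1%, 46.8% and 49.6% of pairs. On the same strand, long sites had 81.7% ± 11.9 at the centre, 37.8% ± 10.7 on the 5′ side and 34.2% ± 5.09 on the 3′ side. At 600 nt from the centre, same-strand cover of long ssRNase sites was still 13.8% ± 3.53 on the 5′ side and 12.8% ± 1.95 on the 3′ side, against 4.61% ± 1.76 and 4.71% ± 1.85 for shorter ssRNase sites. Long sites thus lay in stretches that were rich in sites well beyond their own ends.

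**Figure D4:**
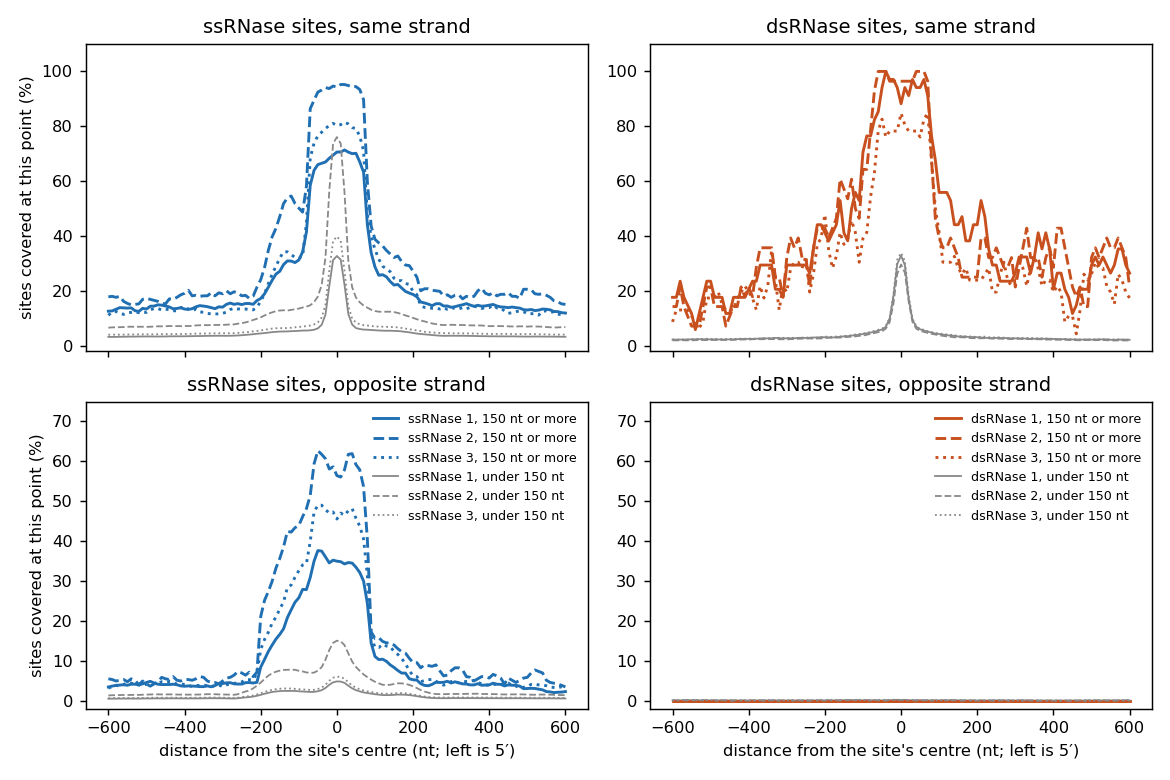
Percent of sites covered by other lists of the same nuclease (y axis) at each distance from the site's centre (x axis, nt, 5′ at left), on the same strand (top) and the opposite strand (bottom). Coloured lines are sites of 150 nt or more and grey lines shorter sites; on the opposite strand the long ssRNase sites reach 45.7% on average at the centre and the dsRNase sites stay near 0%.

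The strand of long sites varied between lists. The minus strand held 48.3%, 79.8% and 68.9% of long ssRNase sites, against 56.7%, 58.9% and 58.1% of shorter ones. It held 100% of long sites in each dsRNase list, against 78.9%, 63.6% and 77.5% of shorter ones. The mean difference of 17.2 percentage points gave an exact sign-flip p of 0.0625 (adjusted 0.156), with 5 of 6 lists in its direction. In ssRNase list 1 the share ran the other way. With the mitochondrial and unplaced contigs kept, the difference was -2.42 percentage points.

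The 5 longest ssRNase sites lay at the nuclear noncoding RNAs MALAT1 and NEAT1. Loci are named here from general knowledge of where genes lie in hg19, since no hg19 annotation was used. The span of sites was set beside the RefSeq length of the gene as a check. The span ran past that length at MTRNR2L2 (8319 against 611 nt), MTRNR2L8 (6081 against 1290 nt) and RMRP (2276 against 270 nt). It was also longer at HNRNPA2B1 (17427 against 10820 nt) and ACTB (4869 against 3454 nt). At these loci the check does not bear out the name, so where these names are used they rest on position alone. At EEF1A1, STMN1 and ACTG1 the span was close to the RefSeq length. The longest site, 982 nt at chr11:65267509-65268490 on the plus strand of ssRNase list 1, lies at MALAT1, an abundant RNA of nuclear speckles. The next 4 lie at NEAT1, all on the plus strand of ssRNase list 1: chr11:65191808-65192754 (947 nt), chr11:65211795-65212506 (712 nt), chr11:65195588-65196287 (700 nt) and chr11:65206908-65207556 (649 nt). The MALAT1 stretch held 982 site bases in ssRNase list 1 as 1 site, 795 bases in ssRNase list 2 as 5 sites and 877 bases in ssRNase list 3 as 5 sites. The dsRNase lists held 43, 89 and 114 bases there. The longest NEAT1 stretch held 947, 668 and 745 bases in the ssRNase lists, against 58, 135 and 242 in the dsRNase lists. Both stretches thus held sites in every list and more site bases with ssRNase, a description, since they were chosen for their length in ssRNase list 1.

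NEAT1 as a whole, with sites from chr11:65190290 to 65212993 (22704 nt, RefSeq length 22743), held 43, 14 and 23 long ssRNase sites and no long dsRNase site. Sites covered 85.4%, 48.0% and 67.7% of that span with ssRNase, against 11.2%, 19.6% and 25.0% with dsRNase. MALAT1, with sites from chr11:65266520 to 65273858 (7339 nt, RefSeq length 8779), held 14, 2 and 3 long sites with ssRNase and none with dsRNase. Sites covered 89.2%, 44.1% and 63.6% of it with ssRNase, against 9.03%, 9.93% and 20.8% with dsRNase. These gaps are to be read beside the whole lists, which held 10168003, 2896966 and 8080113 site bases with ssRNase, against 808912, 961859 and 782494 with dsRNase. Mean site bases were 8.28 times as many with ssRNase as with dsRNase over all sites, 3.60 times at NEAT1 and 4.95 times at MALAT1. Full cover of a span caps the ratio there, and ssRNase list 1 already covered 85.4% of NEAT1 and 89.2% of MALAT1. Even full ssRNase cover would leave both ratios below 8.28, so these lower ratios do not show a weaker ssRNase excess at these RNAs.

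XIST, the noncoding RNA that coats the inactive X chromosome, also held long sites. It lies on the minus strand of the X chromosome, with sites over 32556 nt (RefSeq length 32059). It held 32, 7 and 10 long sites with ssRNase, against 0, 0 and 4 with dsRNase, and sites covered 63.0%, 29.5% and 43.9% of it with ssRNase, against 22.9%, 20.3% and 34.1% with dsRNase. Here the groups overlapped, since dsRNase list 3 was above ssRNase list 2, and mean site bases were 1.77 times as many with ssRNase as with dsRNase. Its locus at chrX:73043266-73043870 was long in 4 lists, with 561, 405 and 518 bases in the ssRNase lists and 249, 223 and 422 in the dsRNase lists. NEAT1, MALAT1 and XIST together held 11.7%, 10.2% and 6.38% of all long-site bases in the ssRNase lists, against 0%, 0% and 16.4% in the dsRNase lists. No long site at these 3 RNAs was faced by a site on the other strand of its own list, so they belong to the unfaced class.

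**Figure D5:**
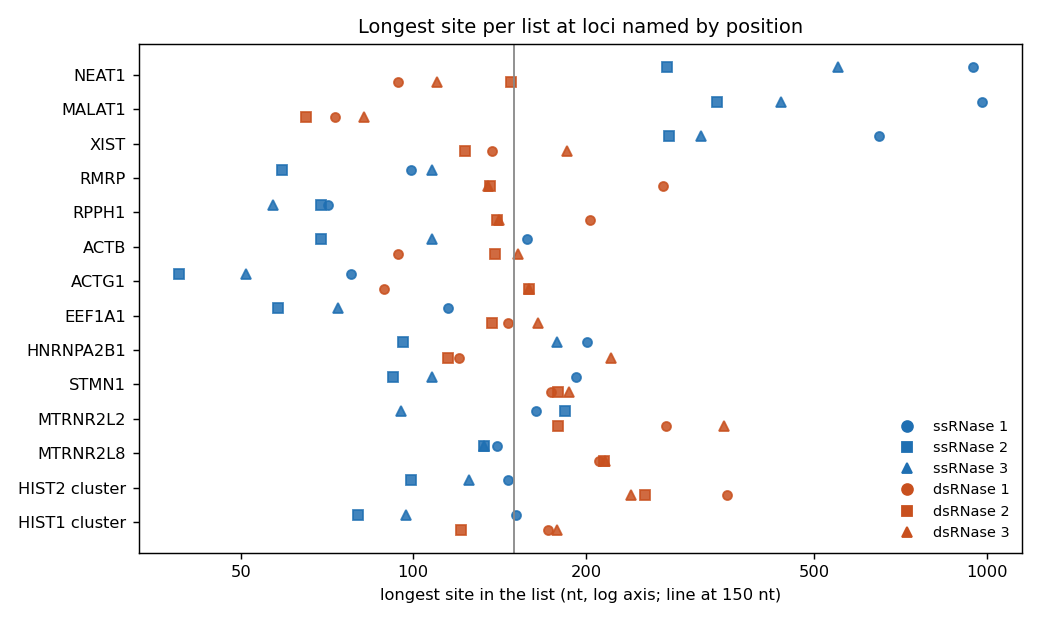
Length of the longest site (x axis, nt, log axis) in each list at 14 loci named from their hg19 positions (y axis), with the line at 150 nt. ssRNase lists are blue and dsRNase lists orange; at NEAT1 and MALAT1 the 3 ssRNase lists lie above 150 nt and the 3 dsRNase lists below it.

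The long dsRNase sites formed a small set of 31 loci, 10 of them long in all 3 dsRNase lists. The median locus had 41.9% of its length inside ssRNase sites, averaged over the ssRNase lists, and 88.4% inside dsRNase sites, averaged over the dsRNase lists, a description, since the loci were chosen for their dsRNase length. Counted by site, long dsRNase sites had a mean of 44.6% ± 8.04 of their bases inside ssRNase sites. Shorter dsRNase sites had 41.7% ± 1.26 (SD, n = 3 lists). No ssRNase site was present at 2 of the 31 loci, chr6:74229061-74229225, in EEF1A1, and chr17:8283122-8283273. EEF1A1 encodes the translation elongation factor that brings aminoacyl-tRNA to the ribosome. The matching share of shorter dsRNase sites is not given here, and a longer locus has more room to meet a site. The 10 windows with the most long-site bases of each list held 12.7%, 15.0% and 8.68% of long-site bases in the ssRNase lists, and 86.8%, 94.2% and 66.8% in the dsRNase lists. Windows with any long site numbered 921, 239 and 678 in the ssRNase lists and only 13, 11 and 19 in the dsRNase lists, so the dsRNase shares were bound to be high.

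The locus that was long in the most lists, 5 of 6, lies at chr5:79946317-79946814 on the minus strand. It falls at MTRNR2L2, a nuclear gene that resembles part of the mitochondrial large ribosomal RNA, so reads may be shared with that RNA; how the authors placed such reads is not stated in the labels. It held 243, 253 and 238 site bases in the ssRNase lists, against 495, 474 and 497 in the dsRNase lists. In dsRNase list 1 a site of 276 nt ran from 79946317 to 79946592 and a site of 179 nt from 79946594 to 79946772. In dsRNase list 2 the first stretch was split into 149 nt up to 79946465 and 123 nt from 79946467, and the same 179-nt site followed. In dsRNase list 3 the 149-nt site came first and a single site of 348 nt ran on from 79946467 to 79946814. The protected bases were nearly alike in the 3 lists, and the places where a few bases broke them decided which pieces were long.

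Further loci were long in all 3 dsRNase lists and in no ssRNase list. At chr13:110076474-110076690 on the minus strand, ssRNase lists 1, 2 and 3 held 35, 0 and 0 bases, against an identical site of 217 nt in all 3 dsRNase lists. This locus may not be independent of chr5:79947256-79947415, in the MTRNR2L2 window. Both had a 35-nt site at score percentile 87.2 in ssRNase list 1 and a site at percentile 99.82 in dsRNase list 3. In dsRNase lists 1 and 2 the percentiles were 99.86 and 99.95 on chromosome 13, against 99.84 and 99.93 on chromosome 5. Whether reads were shared was not tested. At chr11:10530377-10530592, in the MTRNR2L8 window, another gene of the same kind, the ssRNase lists held 91, 71 and 70 bases, against 211, 215 and 216 in the dsRNase lists. At chr17:33478111-33478365 the ssRNase lists held 162, 148 and 131 bases, against 252, 221 and 211 in the dsRNase lists. These values are a description, since such loci were chosen for their dsRNase length.

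The HIST2 cluster of replication-dependent histone genes on chromosome 1 gave the longest dsRNase site, 352 nt at chr1:149812378-149812729 on the minus strand of dsRNase list 1. The joined locus there held 323, 206 and 224 bases in the ssRNase lists, against 352, 334 and 320 in the dsRNase lists. A second site of 254 nt, at chr1:149813917-149814170 in dsRNase list 2, was among the 5 longest. The cluster held no long ssRNase site and 3 long sites in each dsRNase list. A further locus in it, chr1:149784896-149785062, held 159, 103 and 165 bases in the ssRNase lists, against 166, 157 and 166 in the dsRNase lists, so there the groups overlapped. Its long site had the same score percentile as the long site at chr1:149812373-149812729 in dsRNase list 2 (98.66) and in dsRNase list 3 (99.05). In dsRNase list 1 the percentiles were 98.91 and 98.99. These loci may thus not be separate signals, and whether they share reads was not tested.

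STMN1, which encodes the microtubule regulator stathmin, had a locus that was long in 4 lists, at chr1:26227982-26228173 on the minus strand. It held 192, 58 and 95 bases in the ssRNase lists, against 174, 179 and 187 bases in the dsRNase lists, each of these as 1 site. ACTG1, which encodes cytoplasmic gamma actin, lay in a further top window, with no long site in the ssRNase lists or in dsRNase list 1 and a 159-nt site in each of dsRNase lists 2 and 3. All 10 windows with the largest average share of long-site bases were on the minus strand, but 7 of them held no long ssRNase site, and the few long dsRNase sites, all on the minus strand, set that ranking.

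The fourth longest dsRNase site lay at RMRP, the RNA of the RNase MRP ribonucleoprotein, which takes part in ribosomal RNA processing. It is shown because 1 site was about as long as the RNA. The site, chr9:35657745-35658017 on the minus strand of dsRNase list 1, was 273 nt long, where RefSeq gives a gene length of 270 nt. The RMRP transcript in GENCODE (GRCh38) has 268 nt, given 5′ to 3′ with no base marked:
RMRP: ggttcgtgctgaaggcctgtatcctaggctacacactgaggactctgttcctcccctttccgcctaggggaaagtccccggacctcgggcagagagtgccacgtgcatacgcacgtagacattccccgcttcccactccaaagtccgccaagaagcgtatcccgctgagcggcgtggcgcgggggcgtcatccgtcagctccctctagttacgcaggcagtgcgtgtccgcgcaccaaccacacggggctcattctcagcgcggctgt
The ssRNase lists held 106, 105 and 132 bases of this stretch, each with a site that began at 35657972 and reached the locus's upper end, the 5′ side on this strand. The other dsRNase lists held nearly the same bases as dsRNase list 1, in pieces. In dsRNase list 2 there were sites of 90, 37 and 136 nt, and in dsRNase list 3 sites of 133 and 135 nt. RPPH1, the RNA of RNase P, gave a similar picture: sites spanned 346 nt (RefSeq length 341), and the longest sites were 71, 69 and 57 nt in the ssRNase lists, against 203, 140 and 141 nt in the dsRNase lists.

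Some other loci were long in all 3 ssRNase lists and had no dsRNase site at all. This was not a trait of such loci. Of the 120 loci long in all 3 ssRNase lists, 75 (62.5%) held a dsRNase site. The share was 808 (48.7%) of all 1660 loci, and 777 (47.7%) of the 1629 loci long with ssRNase only. A longer locus has more room to meet a site by a single base, so these shares move with length. Of the 120 loci, 3 without a dsRNase site were picked after their values were seen. At chr21:9825929-9826317 on the plus strand the ssRNase lists held 369, 310 and 386 bases. At chr14:29261494-29261793 on the minus strand they held 299, 298 and 299 bases, and at chr18:29056638-29056937 on the minus strand 246, 295 and 269 bases. No gene name is given to these positions here.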

How the data were processed

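The members, gene names and lists of loci were chosen with earlier results of these data known. A duplex-specific nuclease step, which lowers abundant sequences, was part of library preparation, per the labels' protocols. The submitters' processing notes name cutadapt 0.9.5, TopHat2 2.0.9 and build hg19. The names of the deposited lists give the caller as CSAR and the false discovery rate as 5%. Each deposited site has a position, a strand and a score; how the score was normalised and how multi-mapping reads were placed is not stated. Merged lists were not used.

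Length was end minus start plus 1. Sites overlapping by 1 nt or more on a strand were joined into loci with Python 3.11.15, numpy 2.4.6 and pandas 2.3.3. The list was the unit of every test: exact permutation of 3 against 3 lists, or exact sign flips over 6 lists (scipy 1.17.1). Benjamini-Hochberg adjustment was made over 5 main tests, and p-values of other comparisons and of alternatives were not adjusted. Of the 5, the one on the share of long sites is not reported as a test, since length chose the members. Scripts were tested on simulated data. Alternatives were length limits of 120 and 200 nt, both contigs kept, the better-scoring 50% of sites, other comparators, each list left out, joining of near sites and leaving out named loci, the last 2 chosen after seeing the data. Loci named by rule were the 5 longest sites of each nuclease, loci long in 5 or more lists and the 10 windows of 10000 bp with the largest mean share of long-site bases; all others were chosen after their values were seen.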

Additional observations from a re-analysis of the deposited data

Results flagged for a closer look

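The opposite-strand cover of long minus shorter sites differed between the nucleases. It averaged 37.6 percentage points over the 3 ssRNase lists, all above 0, and -0.209 percentage points over the 3 dsRNase lists, all below 0. Against sites of 75 to 149 nt the values were smaller in the ssRNase lists, at 15.9 percentage points, and -0.243 in the dsRNase lists. The exact permutation test of the difference against all shorter sites gave p = 0.1, the smallest that 3 against 3 lists allow, so it did not pass. The dsRNase value rests on long sites that all had 0% cover, where shorter dsRNase sites had a mean of only 0.209%.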

How the results depend on the processing

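The cover of long minus shorter sites by other lists of the same nuclease kept its direction in 15 of 15 alternatives; leaving out a list gave 42.0 to 49.4 percentage points, each at an exact p of 0.0625, the smallest that 5 lists allow. The difference in cover by the other nuclease turned to -0.943 with both contigs kept, to -1.56 when counted as sites with at least 50% covered, and to -0.548 without the named loci. The minus-strand difference turned to -2.42 with both contigs kept. The causes were not tested. The opposite-strand difference kept its direction throughout but was 7.81 percentage points over the 6 lists against sites of 75 to 149 nt, where it was 18.7 against all shorter sites. The share of long sites kept its direction throughout. The number of loci was 4992 at 120 nt, 460 at 200 nt and 3145 after joining sites up to 10 nt apart; leaving out a list gave 906 (without ssRNase replicate 1) to 1659. Correlations were taken between deviations of the ssRNase and dsRNase lists, not between the lists themselves. For same-numbered lists they were 0.0161, -0.0634 and -0.0298, within the range of -0.0992 to 0.0917 for different-numbered lists. Replicate numbers thus showed no pairing across the nucleases, but such values cannot exclude a shared culture or batch. Within a nuclease, each footprint was set against its same-numbered digestion control. Pairing lists by replicate number leaves the mean share difference at 0.416 by arithmetic, so it is no check of that value. Unknown read depth limits all of these values.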
